A study of Mus musculus with 4 samples.

Results

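The 8 genes described here carry out or control cholesterol synthesis and uptake. They were picked by name, as Hmgcs1, Idi1, Fdft1, Sqle, Lss, Dhcr7, Insig1 and Npc1l1, and each was taken from the array feature annotated with that 1 gene symbol. All 8 had a single such feature among 30702 genes with a value. RNA from sorted cells of the small intestine of mice aged 8 weeks was hybridised to 4 Clariom D mouse arrays, which probe both coding and long noncoding transcripts, with 1 array per group. The groups were GFP-positive stem cells with a LncGata6 mutation, GFP-positive stem cells of Ehf knockout (Ehf-/-) mice, GFP-positive stem cells of wild-type mice, and GFP-negative non-stem cells of wild-type mice. All came from Lgr5GFP-CreERT2 animals, in which the stem cell gene Lgr5 drives GFP and an inducible Cre, so the gate relies on Lgr5 being expressed. LncGata6 is a long noncoding RNA transcribed beside Gata6, and Ehf is an ETS-family transcription factor of epithelia. The kind of LncGata6 mutation, and whether animals were pooled, are not given in the sources used here. The labels also name a sort for ILCreg cells, which are innate lymphoid, so which gate was used is not settled.

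Cells make cholesterol from acetyl-CoA through mevalonate, isoprenoids and squalene, and each step has its own enzyme. When sterol in the endoplasmic reticulum runs low, the protein SCAP carries the SREBP transcription factors to the Golgi, where they are cut free and then raise the genes of synthesis and uptake. When sterol is plentiful, INSIG proteins hold SCAP back. In the small intestine, absorptive enterocytes also take cholesterol from the gut lumen through NPC1L1, return part of it through the ABCG5 and ABCG8 pair, and load the rest onto chylomicrons built on apolipoprotein B.

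The arrays were not alike in what they contained. Values are on the log2 scale, and a control limit, the 95th percentile of 5222 negative control features, stood at 5.31 in the LncGata6 mutant sample, 5.19 in the Ehf knockout sample, 5.62 in the wild-type stem sample and 5.16 in the non-stem sample. The targeted gene Ehf read 5.09 in the LncGata6 mutant sample, 3.03 in the Ehf knockout sample, 6.99 in the wild-type stem sample and 3.75 in the non-stem sample. Gata6os, the listed name of LncGata6, was under the limit of each array and so checks no label. Lgr5 was above the limit in the wild-type stem sample alone, at 9.41, and at 3.03 in the LncGata6 mutant sample, 2.79 in the Ehf knockout sample and 3.03 in the non-stem sample. Of 10 general epithelial marker genes, all 10 were under the limit in the Ehf knockout sample and 0 on each of the other arrays. Crypt base stem cell markers reached the limit in 3 of 8 cases in the LncGata6 mutant sample, 1 of 8 in the Ehf knockout sample, 5 of 8 in the wild-type stem sample and 2 of 8 in the non-stem sample. All 8 neutrophil markers were above the limit in the Ehf knockout sample, and all 8 hepatocyte and all 7 kidney tubule markers were above it in the non-stem sample. Markers thus go against the labelled cell type in the Ehf knockout sample, Lgr5 is at background in both mutant samples, and the non-stem sample holds hepatocyte and kidney tubule markers. Samples are called by their labels throughout. In the Ehf knockout sample 62.2% of genes shared their exact value with another gene, against 1.74%, 1.87% and 5.72% in the LncGata6 mutant, wild-type stem and non-stem samples, so values there come in coarser steps.

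Hmgcs1, which makes HMG-CoA at the entry to the mevalonate pathway, had the widest spread of the synthesis genes. It stood at 7.66 in the LncGata6 mutant sample, 5.0 in the Ehf knockout sample, 8.28 in the wild-type stem sample and 9.05 in the non-stem sample. Only the Ehf knockout value was under its control limit, and there Hmgcs1 ranked at the 80.2 percentile of genes, against the 95.3, 96.4 and 97.5 percentiles in the LncGata6 mutant, wild-type stem and non-stem samples. Idi1, the isomerase that readies isoprenoid units for chain building, read 5.61 in the LncGata6 mutant sample, 4.07 in the Ehf knockout sample, 6.11 in the wild-type stem sample and 6.16 in the non-stem sample. It too was under the limit in the Ehf knockout sample alone, where 113 other genes had exactly its value, Dhcr7 among them.

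Fdft1, squalene synthase, commits isoprenoids to sterols and was the steadiest member, with a range of 0.84 over the arrays. Its values were 5.82 in the LncGata6 mutant sample, 5.43 in the Ehf knockout sample, 6.27 in the wild-type stem sample and 6.03 in the non-stem sample, each above the limit of its array. Sqle, the squalene epoxidase that adds the first oxygen, read 5.64 in the LncGata6 mutant sample, 4.20 in the Ehf knockout sample, 5.98 in the wild-type stem sample and 5.80 in the non-stem sample. Like Idi1, Sqle dropped under the limit only in the Ehf knockout sample, where 24 other genes shared its value.

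Lss, lanosterol synthase, closes the sterol rings, and Dhcr7 reduces a double bond at a late step on the way to cholesterol. Lss was under the limits on every array, at 3.94 in the LncGata6 mutant sample, 3.76 in the Ehf knockout sample, 4.45 in the wild-type stem sample and 4.95 in the non-stem sample. Dhcr7 read 4.78 in the LncGata6 mutant sample, 4.07 in the Ehf knockout sample, 4.78 in the wild-type stem sample and 5.26 in the non-stem sample, and passed the limit in the last alone. Differences of these 2 genes among the stem cell arrays are therefore between values at background, and no fold is given for them.

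Insig1, the sterol-sensing anchor of SCAP and itself a target of the SREBP factors, stood above the limit on all 4 arrays. It read 6.53 in the LncGata6 mutant sample, 5.41 in the Ehf knockout sample, 6.80 in the wild-type stem sample and 7.02 in the non-stem sample. Its order of arrays was that of Hmgcs1, with non-stem highest and Ehf knockout lowest. With 1 array per group there is no spread against which neighbouring values in any of these orders could be told apart.

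Npc1l1, the cholesterol importer of the enterocyte brush border, followed another order and had the widest range of the 8 genes, 6.25. It reached 9.56 in the LncGata6 mutant sample, 3.30 in the Ehf knockout sample, 6.54 in the wild-type stem sample and 5.66 in the non-stem sample. Among all genes it ranked at the 98.6 percentile in the LncGata6 mutant sample and the 51.4 percentile in the Ehf knockout sample, with the 90.8 percentile in the wild-type stem sample and the 80.6 percentile in the non-stem sample. Npc1l1 was the only member highest in the LncGata6 mutant sample.

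**Figure D1:**
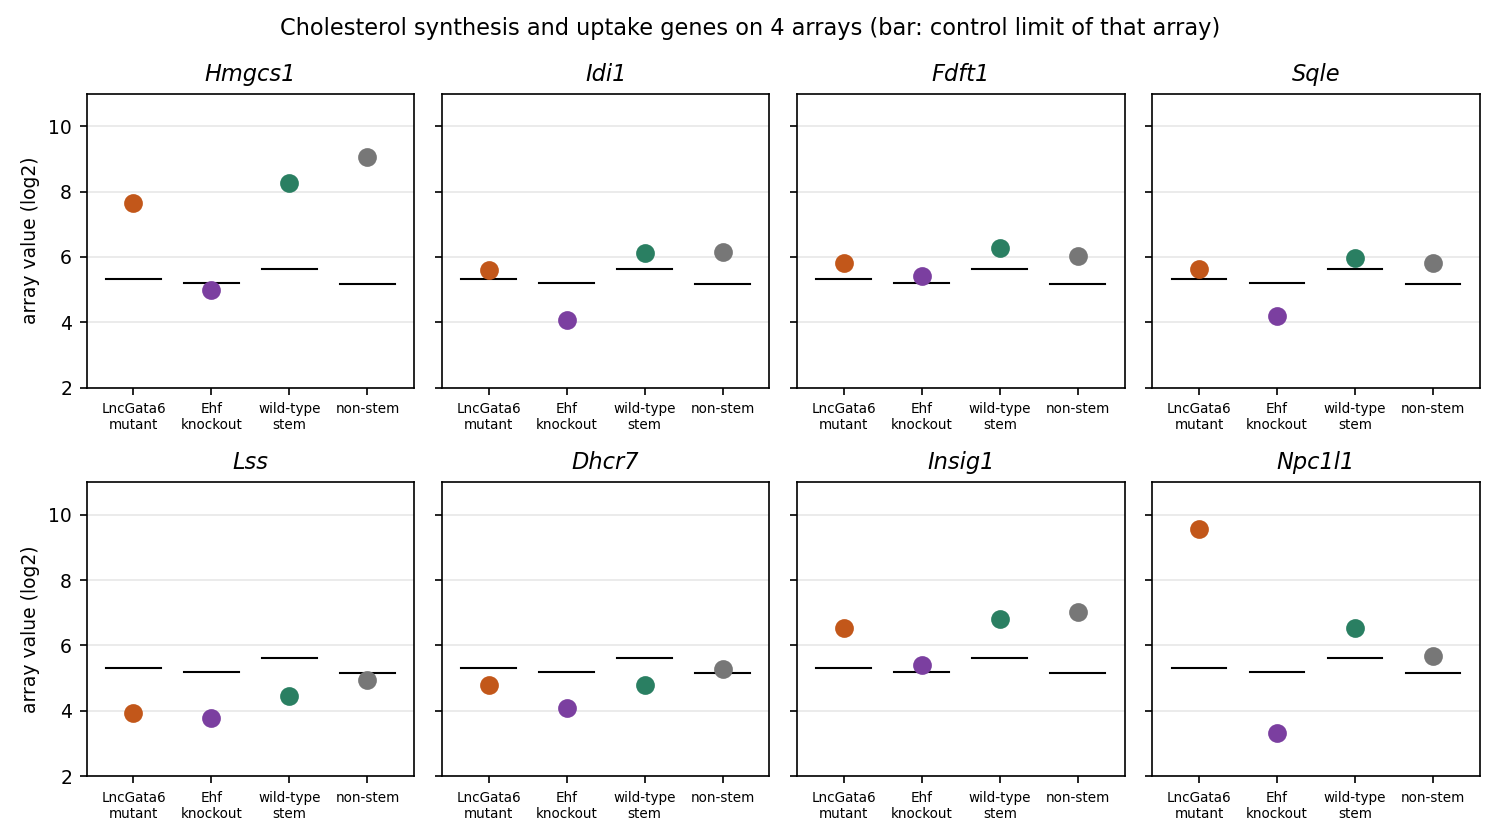
Array value (log2, vertical axis) of each of the 8 genes in the LncGata6 mutant, Ehf knockout, wild-type stem and non-stem samples (points, 1 array each), with the control limit of each array as a bar. Npc1l1 alone is highest in the LncGata6 mutant sample, at 9.56, and 6 of the 8 genes lie under the limit in the Ehf knockout sample.

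The differences between pairs of arrays were called by a fixed rule, since with 1 array per group there is no replicate check and no test. A gene was called higher or lower when its log2 values differed by at least 1, a 2-fold change, and the brighter of them reached the 75th percentile of its own array. On each stem cell array that percentile lay under the control limit, so a gene under both control limits could still be called. Folds are brighter over dimmer, and where the dimmer value was under its control limit, that limit takes its place and the fold is a lower bound. Of the 8 genes, 7 reached the 75th percentile in the wild-type stem or the non-stem sample and 6 in at least 1 sample of each other pair, where Lss and Dhcr7 did not and so could not be called. Lss was also below it in the wild-type stem and non-stem samples.

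Between the LncGata6 mutant and wild-type stem samples, the importer Npc1l1 was higher and no synthesis gene was called. Npc1l1 read 9.56 in the LncGata6 mutant sample against 6.54 in the wild-type stem sample, a difference of 3.01 and 8.08-fold, and 113 of 30702 genes differed at least that far upward, Npc1l1 included. The 6 synthesis enzymes differed by -0.62 to 0.01, with a median of -0.47. Hmgcs1 differed by -0.62, Idi1 by -0.50 and Insig1 by -0.27. The count was thus 1 of 8 higher and 0 of 8 lower, where the rule called 2.81% of all genes higher and 3.02% lower, or 862 and 926 genes (1100 and 652 after cyclic loess). Among genes at or above the 75th percentile in at least 1 of these samples, 9.91% were called higher and 10.7% lower. The median over the 8 genes was -0.40, against -0.06 over all genes.

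Markers of several cell types and states moved with this comparison. All 10 enterocyte markers, among them Fabp2, Sis and Lct, were called higher in the LncGata6 mutant sample, by a median of 3.49, and their values ran from 9.27 to 12.2 in the LncGata6 mutant sample and from 4.24 to 9.54 in the wild-type stem sample. Their summed linear level, 2 raised to each value and added, was 19698 in the LncGata6 mutant sample and 2519 in the wild-type stem sample. All 8 T cell and intraepithelial lymphocyte markers were called higher too, by a median of 4.10, with values from 7.56 to 11.5 in the LncGata6 mutant sample and from 3.67 to 7.15 in the wild-type stem sample. Crypt base stem cell markers were called lower in 5 of 8 cases, by a median of -1.17, dividing cell markers in 5 of 8, by a median of -1.38, and immediate early and heat shock genes in 3 of 7, by a median of -0.81. The part of these lists in the Npc1l1 difference was not tested. In sorted bulk samples, fewer cells of a type and less RNA per cell cannot be told apart.

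Between the Ehf knockout and wild-type stem samples, 5 of the 8 genes were lower, among them 3 of the 6 synthesis enzymes. Hmgcs1 was at 5.0 in the Ehf knockout sample against 8.28 in the wild-type stem sample, at least 8.49-fold lower, with a difference of -3.28. Npc1l1 was at 3.30 in the Ehf knockout sample against 6.54 in the wild-type stem sample, at least 2.55-fold lower, with a difference of -3.24. Both Ehf knockout values were under the control limit, so the differences of these genes are not ranked.

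Idi1 was at least 1.89-fold lower in the Ehf knockout sample, with a difference of -2.03, and Sqle at least 1.73-fold lower, with a difference of -1.78. Insig1, measured above the limit on both arrays, was 2.63-fold lower. Fdft1 differed by -0.84, Dhcr7 by -0.70 and Lss by -0.69 and were not called, so all 8 differences were negative, in a comparison where 68.7% of all genes had negative differences. In total 5 of 8 were called lower and 0 of 8 higher, against 5.29% of all genes lower and 2.59% higher, or 1624 and 796 genes (1036 and 1130 after quantile normalization). Among genes at or above the 75th percentile in at least 1 of these samples, 17.9% were called lower and 8.76% higher. The median of the 8 genes was -1.59, against -0.20 over all genes. Relative to that shift of all genes, which the scalings that equalise the arrays remove, the differences of Hmgcs1, Npc1l1, Idi1, Sqle and Insig1 were -3.07, -3.04, -1.83, -1.58 and -1.19.

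**Figure D2:**
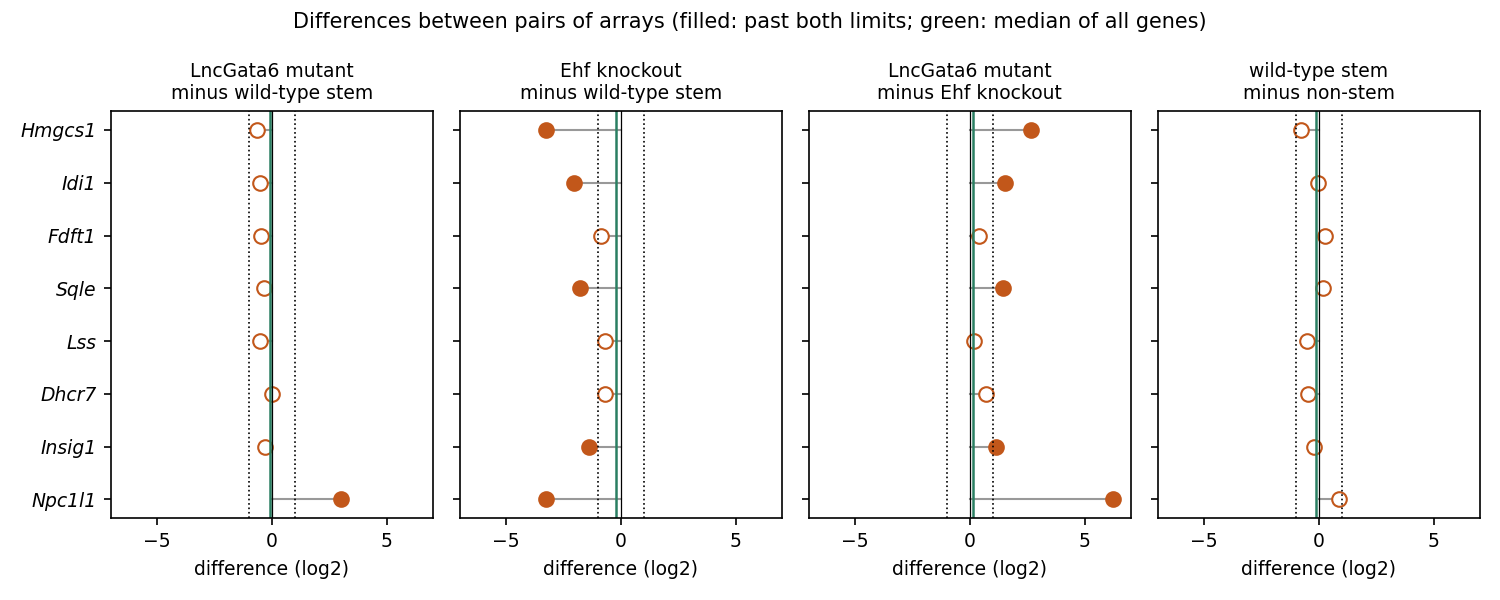
Difference in log2 value (horizontal axis) of each of the 8 genes in 4 comparisons of 2 arrays, filled where past both limits, with dotted lines at -1 and 1 and the median of all genes in green. Npc1l1 alone is filled on the right in the LncGata6 mutant against wild-type stem panel, and 5 genes are filled on the left in the Ehf knockout against wild-type stem panel.

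Epithelial transcripts were lower in the same comparison, and blood cell transcripts higher. The 10 general epithelial markers, including Epcam, Cdh1 and Krt8, were all called lower, by a median of -5.31, with values from 2.18 to 4.72 in the Ehf knockout sample and from 6.87 to 10.4 in the wild-type stem sample. Their summed linear level was 138 in the Ehf knockout sample and 5182 in the wild-type stem sample. All 8 neutrophil markers were called higher, by a median of 7.38, with values from 6.87 to 11.7 in the Ehf knockout sample and from 1.51 to 3.89 in the wild-type stem sample, where all were under the limit. Enterocyte markers were called lower in 8 of 10 cases, by a median of -3.85, and crypt base stem cell markers in 5 of 8, by a median of -2.05. All 7 immediate early and heat shock genes were called lower, by a median of -2.95. All 4 B cell markers, all 6 macrophage markers and 3 of 8 dividing cell markers were called higher, while T cell and intraepithelial lymphocyte markers were higher in 4 of 8 cases and lower in 2. Their part in the lower cholesterol genes was not tested, and a loss of Ehf cannot be told apart from the different cell content of that array.

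**Figure D3:**
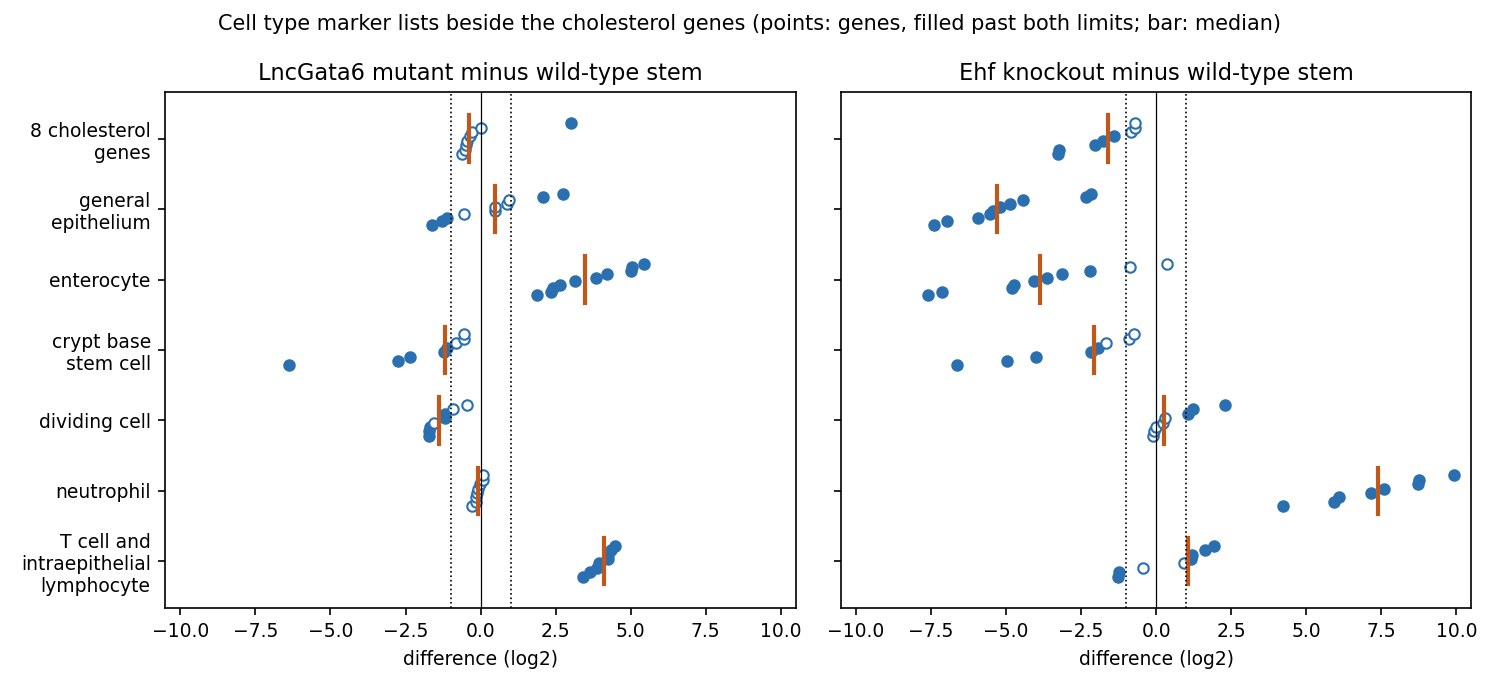
Differences in log2 value (horizontal axis) of the 8 cholesterol genes and of 6 marker lists, for the LncGata6 mutant (left panel) and the Ehf knockout (right panel) against the wild-type stem sample, with each gene a point, filled where past both limits, and each median a bar. The cholesterol genes have medians of -0.40 and -1.59 in the panels, while general epithelial markers have medians of 0.47 and -5.31.

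The mutants were also compared directly. In the LncGata6 mutant sample 5 of 8 genes were higher than in the Ehf knockout sample and 0 of 8 lower, where 6.16% of all genes were called higher and 3.47% lower, or 1891 and 1066 genes (1417 and 1445 after quantile normalization). Among genes at or above the 75th percentile in at least 1 of these samples, 20.7% were called higher and 11.7% lower. The median of the 8 genes was 1.28, against 0.13 over all genes. Npc1l1 differed by 6.25 and was at least 20.6-fold higher. Hmgcs1 was at least 5.52-fold higher, Sqle at least 1.36-fold and Idi1 at least 1.34-fold. Insig1 was 2.17-fold higher, with a difference of 1.12 that came to 0.95 after median centring, 0.76 after quantile normalization and 0.94 after cyclic loess, all short of the rule. Fdft1 differed by 0.39. All 10 enterocyte, all 10 general epithelial and all 8 T cell and intraepithelial lymphocyte markers were also called higher in the LncGata6 mutant sample. All 8 neutrophil, 4 B cell, 6 macrophage and 8 dividing cell markers were called lower. The part of these lists in the cholesterol gene differences was not tested, and genotype cannot be told apart from cell content here.

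Between the wild-type stem and non-stem samples none of the 8 genes was called in either direction, where 3.83% of all genes were called higher and 7.07% lower, or 1176 and 2172 genes (1732 and 1684 after quantile normalization). Among genes at or above the 75th percentile in at least 1 of these samples the shares were 12.5% and 23.1%. Npc1l1 was at 6.54 in the wild-type stem sample against 5.66 in the non-stem sample, a difference of 0.88, which quantile normalization took to 1.16 and past the rule. Hmgcs1 was at 8.28 in the wild-type stem sample against 9.05 in the non-stem sample, a difference of -0.78. The other 6 genes differed by -0.50 to 0.24. The median of the 8 genes was -0.14, against -0.11 over all genes, and its sign was not stable: it came to -0.02 after median centring, -0.07 after cyclic loess and 0.17 after quantile normalization. All 7 immediate early and heat shock genes were called higher in the wild-type stem sample, by a median of 3.36, as were 7 of 8 dividing cell and 8 of 10 general epithelial markers. The non-stem sample also held hepatocyte markers at 10.6 to 12.5, against 1.43 to 3.80 in the wild-type stem sample. Liver is itself a main site of cholesterol synthesis, and the part of hepatocyte RNA, or of the other lists, in these values was not tested.

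The rest of the sterol pathway was followed in 5 lists, with 49 of 63 listed genes measured. The other listed genes were not analysed here. List counts below stand beside the shares of all genes called by the rule. These were 2.81% higher and 3.02% lower for the LncGata6 mutant against wild-type stem. For Ehf knockout against wild-type stem they were 2.59% and 5.29%, and for wild-type stem against non-stem 3.83% and 7.07%. Of the 12 other synthesis enzymes measured, 0 were called in the LncGata6 mutant sample in either direction, with differences from -0.70 to 0.94 and a median of -0.08. None of the 18 measured synthesis enzymes was thus called there, but 8 of these 12, and Lss and Dhcr7 as well, were under the limit in the wild-type stem sample, where differences are between values near background.

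In the Ehf knockout sample 3 of these 12 were called lower and 0 higher against the wild-type stem sample, by a median of -0.69. Cyp51, the lanosterol demethylase, was at 4.71 in the Ehf knockout sample against 7.07 in the wild-type stem sample, at least 3.68-fold lower. The methylsterol oxidase Msmo1 and the sterol reductase Hsd17b7 were the others, with values under the control limits on both arrays. Fdps, which builds farnesyl chains, read 5.35 in the Ehf knockout sample and 6.26 in the wild-type stem sample and was not called. Lbr, a sterol reductase that is also a receptor of the nuclear envelope, differed by 0.89 in the other direction.

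Several genes of sterol export and lipoproteins were higher in the LncGata6 mutant sample. Of 9 measured genes of efflux, esterification and LXR control, 5 were called higher and 0 lower against wild-type stem, with a list median of 1.97. The 4 not called were under the control limits on both arrays. All 10 enterocyte markers were also called higher, and their part in this was not tested. Apob was 15.2-fold and Apoa1, which encodes the main apolipoprotein of HDL, 11.4-fold higher. Mttp, which loads lipid onto apolipoprotein B and is also in the enterocyte marker list, was 5.26-fold higher. Abcg5 was 3.92-fold higher, and its partner Abcg8 at least 4.47-fold. In wild-type stem against non-stem, 5 of the 9 were called lower and 0 higher, Apoa1 by 12.6-fold and Apob by 8.21-fold. Apoa1 and Apob read 11.2 and 10.4 in the non-stem sample. Hepatocyte markers were called lower in that comparison too, and their part in it was not tested.

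In the Ehf knockout sample 5 of the 9 were called lower against wild-type stem, with a list median of -1.96. Among them were Mttp at least 5.53-fold, Apoa1 at least 5.09-fold, Apob at least 4.53-fold and Abcg5 at least 1.81-fold lower, and Abcg8, which was under the limits on both arrays. Abcg1, a sterol exporter, was called higher there, at least 1.25-fold. All 6 macrophage, all 8 neutrophil and all 4 B cell markers were also called higher there, and their part in the Abcg1 difference was not tested. These comparisons share the wild-type stem sample.

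Some genes of sterol uptake and movement within the cell were higher in each mutant sample than in the wild-type stem sample. In the wild-type stem sample 9 of the 10 measured were under the control limit. In the LncGata6 mutant sample 4 of 10 were called higher and 0 lower, with a list median of 0.40. Lipa, the lysosomal acid lipase that frees cholesterol from its esters, was at least 3.22-fold higher, the sterol transporter Gramd1b at least 2.94-fold and the lysosomal exporter Npc1 at least 1.70-fold. The ubiquitin ligase Mylip was the other, with a difference of 1.02 from a value under the limit. In the Ehf knockout sample 2 of 10 were called higher and 1 lower against wild-type stem, with a list median of 0.23. Lipa was at least 3.38-fold and Mylip at least 1.34-fold higher, while the carrier Stard4 was called lower at values under both limits. In wild-type stem against non-stem 7 of 10 were called lower and 0 higher, with a list median of -1.68. Cell type markers also differed in each of these comparisons, and their part in the differences of this list was not tested.

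Of 7 measured genes of SREBP control, 4 were under the control limit on each stem cell array, Mbtps1, Rnf139 and Ufd1 on all of them. Differences of such genes between the stem cell samples are between values near background. Srebf2, which encodes the SREBP factor of sterol genes, read 6.02 in the LncGata6 mutant sample, 5.83 in the Ehf knockout sample, 6.36 in the wild-type stem sample and 6.18 in the non-stem sample, and was called in 0 of 4 comparisons. In wild-type stem against non-stem 3 of 7 were called lower, Scap (2.12-fold), Pgrmc1 (3.55-fold) and Insig2 (at least 1.98-fold). Hepatocyte and kidney tubule markers were called lower in that comparison too, and their part in this was not tested. Of the 7 SREBP control genes, 2 were called higher in the LncGata6 mutant sample against wild-type stem, by a list median of 0.08, and 1 lower in the Ehf knockout sample, by a list median of -0.45. Pgrmc1, a haem-binding membrane protein that partners INSIG1 and SCAP, was 2.49-fold higher in the LncGata6 mutant sample and 3.62-fold lower in the Ehf knockout sample. Insig2 was at 5.46 in the LncGata6 mutant sample and at a background-level 3.97 in the wild-type stem sample.

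**Figure D4:**
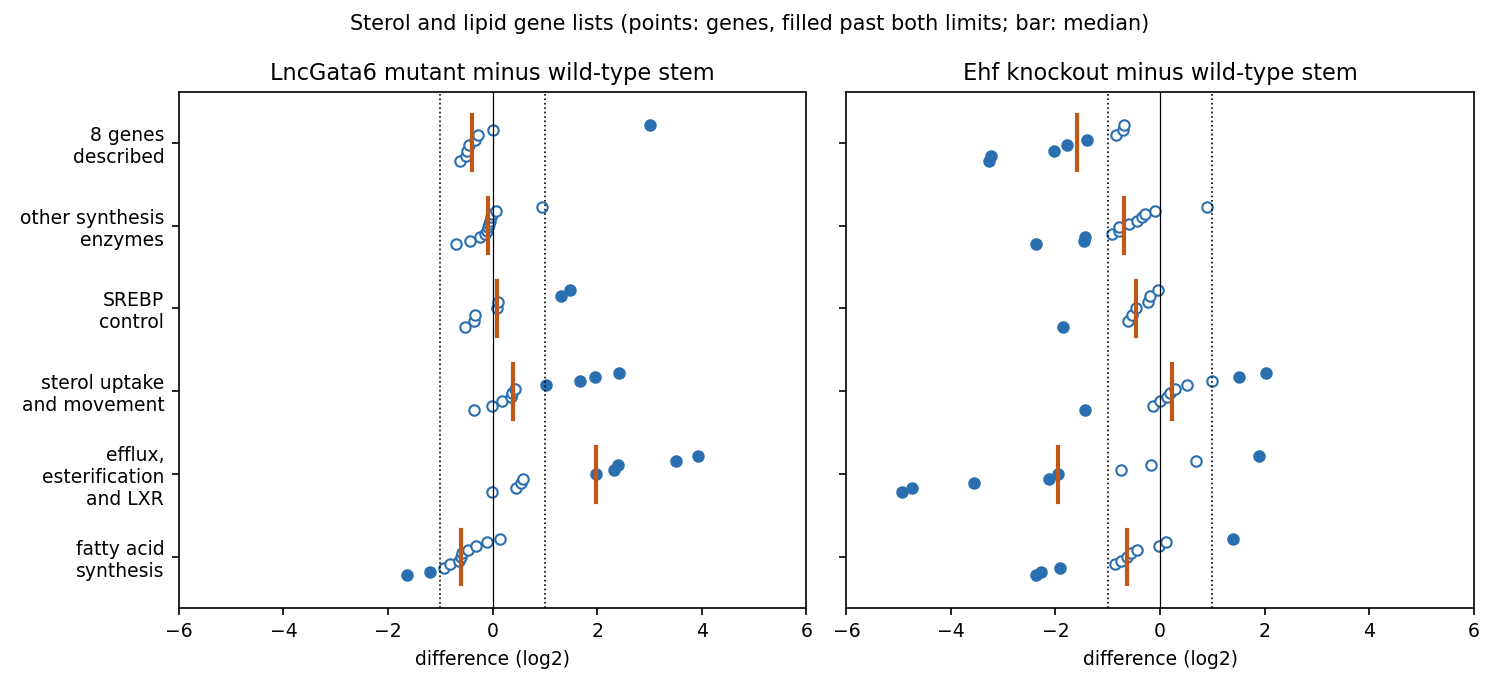
Differences in log2 value (horizontal axis) of the 8 genes and of 5 lists of sterol and lipid genes, for the LncGata6 mutant (left panel) and the Ehf knockout (right panel) against the wild-type stem sample, with each gene a point, filled where past both limits, and each median a bar. The efflux list has medians of 1.97 and -1.96 in the panels, and the other synthesis enzymes have medians of -0.08 and -0.69.

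Promoter windows are shown as a description of sequence near the annotated starts. Printed are those of the genes called lower in the Ehf knockout sample against wild-type stem, except Sqle, for which none was held. The part of promoter sequence in any difference between arrays was not tested. RefSeq windows of the GRCm38.p6 build, from 250 bases before to 50 after the annotated start, were held for 6 of the 8 genes. Capitals mark matches on either strand to TCACNCCAC, a form of the sterol regulatory element bound by SREBP factors, and to CCAAT, the box of the NF-Y factor that acts with them, which reads ATTGG on the opposite strand. Sequences run 5′ to 3′ on the strand of the gene, which is plus for Hmgcs1 (chr13:119690101-119690400), Idi1 (chr13:8885356-8885655) and Insig1 (chr5:28071162-28071461) and minus for Npc1l1 (chr11:6230196-6230495).
Hmgcs1: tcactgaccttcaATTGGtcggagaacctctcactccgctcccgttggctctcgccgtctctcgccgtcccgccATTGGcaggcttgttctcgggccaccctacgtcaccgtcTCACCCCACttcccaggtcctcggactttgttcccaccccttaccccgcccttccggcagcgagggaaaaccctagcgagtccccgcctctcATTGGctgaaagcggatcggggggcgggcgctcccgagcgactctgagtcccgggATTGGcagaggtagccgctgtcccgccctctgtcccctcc
Idi1: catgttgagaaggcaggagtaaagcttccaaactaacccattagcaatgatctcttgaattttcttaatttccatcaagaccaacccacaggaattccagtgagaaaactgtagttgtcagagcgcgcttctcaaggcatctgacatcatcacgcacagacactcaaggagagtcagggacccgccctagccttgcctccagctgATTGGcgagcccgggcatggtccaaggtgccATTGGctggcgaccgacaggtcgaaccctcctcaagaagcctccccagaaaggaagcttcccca
Insig1: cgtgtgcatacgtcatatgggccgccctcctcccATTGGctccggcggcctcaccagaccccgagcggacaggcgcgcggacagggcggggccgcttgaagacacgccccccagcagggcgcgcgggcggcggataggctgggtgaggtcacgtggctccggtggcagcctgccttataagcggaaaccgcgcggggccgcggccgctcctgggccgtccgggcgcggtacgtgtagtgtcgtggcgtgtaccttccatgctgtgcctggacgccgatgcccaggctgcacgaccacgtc
Npc1l1: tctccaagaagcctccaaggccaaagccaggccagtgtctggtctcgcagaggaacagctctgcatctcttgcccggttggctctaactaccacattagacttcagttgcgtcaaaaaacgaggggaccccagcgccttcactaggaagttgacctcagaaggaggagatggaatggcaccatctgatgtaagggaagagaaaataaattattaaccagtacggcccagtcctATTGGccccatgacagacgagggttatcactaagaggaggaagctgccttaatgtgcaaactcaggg

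The sterol element was found in 1 of the 6 genes, Hmgcs1, as TCACCCCAC beginning 137 bases before the start, and in 1.24% of all 32851 promoter windows. Hmgcs1 also held 4 NF-Y boxes, at 237, 176 and 45 bases before the start and 11 bases after it. Idi1 held NF-Y boxes at 45 and 14 bases before the start, Insig1 at 216 and Npc1l1 at 17. In all, 6 of 6 genes had an NF-Y box in a window, against 37.4% of all windows, though Dhcr7 has 3 windows and its boxes lie in the last. The Sp1 box GGGCGG, not marked in capitals, was in a window of 5 of 6 genes, with Npc1l1 the exception, and in 35.7% of all windows. No matches overlapped in the windows printed, and positions are those of the first base of a match. No match for this form of the sterol element in the other windows says only that these letters are not there.

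Genes with the most similar profile were ranked by Euclidean distance between centred log2 values over the 4 arrays, among 10683 genes at or above the 75th percentile of at least 1 array. With so few arrays this is a description. Nearest to the mean profile of the 7 genes other than Npc1l1 were Ext1, Yap1, Farp2, Chchd3 and Gm10039, at distances of 0.13 to 0.17. Of the 7 genes themselves Insig1 lay at 0.13 and Sqle and Idi1 at 0.37. Dhcr7 lay at 0.60, Lss at 0.75, Fdft1 at 0.83 and Hmgcs1 at 1.70. Each of these genes is part of the mean, which shortens its distance. Npc1l1 lay 3.95 from that mean. Nearest to Npc1l1 were the sulfotransferase genes Gal3st2b and Gal3st2, whose close copies may share probes, with Clec2e, Ceacam20 and Heph, a ferroxidase of enterocyte iron export, at distances of 0.34 to 0.69. Heph read 7.81 in the LncGata6 mutant sample, 2.52 in the Ehf knockout sample, 5.33 in the wild-type stem sample and 4.50 in the non-stem sample.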

How the data were processed

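Total RNA of 4 samples, 1 per group, was read on Affymetrix Clariom D mouse arrays, per the labels. The deposited values are on the log2 scale, judged from their range, with 1 value per feature. Per the submitters' processing notes, RMA and Affymetrix Power Tools were used; their versions, the centring and the genome build are not given in the sources used here. Such summaries model and remove background. Differences of low features may still be compressed, which was not tested. Of 72688 features, 31258 had 1 gene symbol in the platform annotation after update through RefSeq (GRCm38.p6), 1492 with several symbols were not used, and 39938 had no listed symbol. For the 441 genes with several features, the one with the highest mean was used.

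Differences of log2 values between 2 arrays were computed with Python 3.11.15 and pandas 2.3.3, and alternative scalings with limma 3.58.1. The number of arrays limits the precision, and no test was possible. Limits were the 75th percentile of each array over features with 1 symbol (4.93, 4.60, 4.97 and 5.26 in the LncGata6 mutant, Ehf knockout, wild-type stem and non-stem samples) and the 95th percentile of negative controls. The calling code was run on simulated arrays with planted differences larger than the limit, which checks the code and not the calls on these arrays. Members, lists and rules were chosen with earlier results of these data known. All 8 members are named, with up to 4 called genes of each other list, and other listed genes named beside them, such as Srebf2, Fdps, Lbr, Insig2, Abcg1 and the fifth efflux gene of a comparison, were chosen after their values were seen. Alternatives were 3 other scalings, another choice of feature, 2 other fold limits and 2 other brightness limits.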

Additional observations from a re-analysis of the deposited data

How the results depend on the processing

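No paired analysis was possible because each group has 1 array, and no replicate could be left out. Of the values of single genes under 8 alternatives, 243 kept their side of the limits, 8 lost a call and 5 gained one. Of the 243, 237 kept their sign and 6 small uncalled differences changed it. Signs could change only under the 3 other scalings, because the other fold and brightness limits leave the differences as they are. Each member has a single feature, so the other choice of feature could change neither sign nor call. These were Idi1 in wild-type stem against non-stem (0.06, 0.25 and 0.05 after median centring, quantile normalization and cyclic loess), Insig1 there (0.10 after quantile normalization), and Lss in the LncGata6 mutant sample against Ehf knockout (-0.08 and -0.07 after quantile normalization and cyclic loess). Called values changed sign in 0 cases. Raising the limit to a difference of 2 (log2) left 3 of the 8 genes lower in the Ehf knockout sample against wild-type stem and 2 higher in the LncGata6 mutant sample against Ehf knockout. Lowering it to 1.5-fold called 1 gene higher (Npc1l1) and 1 lower (Hmgcs1) in wild-type stem against non-stem, 1 lower (Hmgcs1) in the LncGata6 mutant sample against wild-type stem, and 6 rather than 5 lower in the Ehf knockout sample against wild-type stem, with Fdft1 added. Quantile normalization called 1 gene higher (Npc1l1) in wild-type stem against non-stem. Over all genes, a difference of 2 gave 280 higher and 150 lower for LncGata6 mutant against wild-type stem, 313 and 546 for Ehf knockout against wild-type stem, 801 and 401 for LncGata6 mutant against Ehf knockout, and 470 and 962 for wild-type stem against non-stem. In the same order 1.5-fold gave 1636 and 2119, 1276 and 3155, 2987 and 1788, and 2109 and 3275. Without a brightness limit they were 1063 and 1134, 1098 and 2462, 2573 and 1375, and 1771 and 3255. With the control limit as brightness limit they were 790 and 777, 664 and 1150, 1680 and 931, and 923 and 2237. Signal over background limits Lss and Dhcr7 most, which were under the control limits on 4 and 3 arrays.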

Other observations

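Fatty acid synthesis genes are driven by a related SREBP factor. Of 11 measured, 2 were called lower and 0 higher in the LncGata6 mutant sample against wild-type stem (median difference -0.60), the desaturases Fads2 (3.13-fold) and Fads1 (at least 1.62-fold). Against wild-type stem the Ehf knockout sample was lower in 3 and higher in 1 (median -0.63). Fads2 and the elongase Elovl6 were at least 3.94-fold and 3.69-fold lower and Me1 was under both limits, while the desaturase Scd1 was at least 2.24-fold higher. In wild-type stem against non-stem, 8 of 11 were lower and 1 higher (median -1.58), with Scd1 at least 20.6-fold lower, Me1 at least 11.6-fold and Fads1 4.70-fold, and Elovl6 2.36-fold higher. All 8 hepatocyte markers were called lower in that comparison, by a median of -8.79, and their part in it was not tested.

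Exact ties set the Ehf knockout sample apart. Its 30702 genes took 12461 distinct values, against 30323 in the LncGata6 mutant sample, 30287 in the wild-type stem sample and 29573 in the non-stem sample. The commonest value, 1.09, was held by 1158 genes. Among genes at or above the control limit 19.1% shared a value there, against 2.63%, 3.29% and 2.11% in the LncGata6 mutant, wild-type stem and non-stem samples.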
